A study of Mus musculus and Homo sapiens with 22 samples.

Results

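The genes described here are 32 mouse genes of the heterogeneous nuclear ribonucleoprotein (hnRNP) group and their close relatives, the poly(C)-binding (PCBP), FET, FUBP and TIA genes, out of 22667 genes in each of the 6 expression files of N2A cells. They were chosen by name, and each of the 32 was found by its symbol. The study asked how the neuronal splicing factor nSR100 (gene Srrm4), the splicing repressor Ptbp1 and the 3′ splice site factor U2af65 (gene U2af2) regulate alternative splicing. N2A is an established mouse neuroblastoma line. PolyA RNA was sequenced after each factor had been depleted.

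The knockdown with an siRNA pool against U2af65 (siU2af65) and that with a pool against Ptbp1 (siPtbp1) were 1 library each, and the non-targeting control pool was 2 libraries, called control a and control b. These cells were harvested 48 h after transfection. The label of the siU2af65 library carries the letter a and that of the siPtbp1 library the letter b, matching controls a and b, and what the letters stand for is not given. The nSR100 knockdown (shnSR100) was a stable lentiviral hairpin against the 3′UTR of nSR100, and its control (shGFP) a hairpin against GFP, both kept in 2 ug/mL puromycin as selected populations. Each hairpin arm is 1 file, into which the authors combined 2 runs of different read length. Nothing in the labels says that the libraries came from separate cultures, so the p-values below reflect nothing beyond library-to-library spread, and that spread could be technical.

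Proteins of the hnRNP group coat nascent transcripts and take part in splicing, in export and in the stability and translation of mRNA. Many bind short motifs next to splice sites, where they help or hinder the factors that define the exon: U2af65 binds the pyrimidine tract before the 3′ splice site, and Ptbp1, itself an hnRNP (hnRNP I), binds pyrimidine-rich tracts and represses neuronal exons. Most of the genes have close paralogs, and several are known to adjust their own mRNA, or that of a paralog, through alternative splicing.

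The files held between 60220620 and 77138004 reads in genes. The targeted genes followed the labels. U2af2 stood at 18.43 RPKM (reads scaled to gene length and to the file's total reads) in the siU2af65 library, against 113.34 and 105.44 RPKM in the controls. Ptbp1 stood at 8.53 RPKM in the siPtbp1 library, against 157.83 and 138.69 RPKM in the controls. Srrm4 stood at 2.50 RPKM in the shnSR100 file, against 11.63 RPKM in the shGFP file. In every file 9 of 11 neuroblastoma and neuron markers had at least 1 RPKM, while Nefl and Nefm had less than 1 RPKM in all 6 files. The summed level of these markers was 692.5 RPKM in the shnSR100 file and between 903.9 and 1027 RPKM in the other files. Of 5 fibroblast markers, 2 had at least 1 RPKM in the hairpin files and none in the siRNA libraries, with sums of 12.18 RPKM in the shnSR100 file, 7.27 RPKM in the shGFP file and 0.41 to 0.84 RPKM in the siRNA libraries.

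Promoter sequence is shown for the 2 genes that passed the test below, for Hnrnpab as the paralog of Hnrnpd, and for Pcbp1 and Fubp3, the 2 members with the largest positive differences. The sequences are from RefSeq (GRCm38.p6), each 30 bases long and written 5′ to 3′ on the gene's strand, and capitals mark a match to 1 promoter motif per gene, the match of that motif nearest to the annotated start. In Hnrnpd (chr5:99978953-99978982, minus strand) it is an E-box whose first base lies 32 bases upstream of the start. In Hnrnpab (chr11:51606905-51606934, minus strand) it is a CCAAT box 41 bases upstream, and in Hnrnph3 (chr10:63023997-63024026, minus strand) a reverse-strand GC box 165 bases upstream. In Pcbp1 (chr6:86526212-86526241, minus strand) and in Fubp3 (chr2:31572618-31572647, plus strand) it is a reverse-strand ETS core, 40 and 21 bases upstream.
Hnrnpd: gcgctccggagcCACGTGaccgggacgcgc
Hnrnpab: ggttcgctttgcCCAATgagagtatccgtt
Hnrnph3: gtgcgctgcgccCCGCCCcctgggagacca
Pcbp1: cgcggaaagcacTTCCGGggtcagagggta
Fubp3: ccacgcccccacTTCCGGccggacagcggt
The motif was picked gene by gene, so the windows show what these promoters hold and compare nothing.

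RefSeq promoter entries were matched for 29 of the 32 genes, with 40 promoters in all, and Hnrnpul2, Pcbp3 and Pcbp4 are named without one. In the 250 bases upstream of the start, on both strands, the GC box GGGCGG was found in 29 of the 40 promoters (72.5%), against 59.3% of 11204 promoters of tested genes and 32.7% of all 32851 promoters. The CCAAT box (CCAAT) was in 20 (50%), against 35.9% and 33.8%. The ETS core CCGGAA was in 11 (27.5%), against 22.9% and 12.0%, and the E-box CACGTG in 4 (10.0%), against 8.37% and 6.02%. None of the 4 motifs contains another, promoters of 1 gene share sequence, and a match is a run of letters and not a binding site.

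The members were abundant. Their RPKM, a level per length that can be compared between genes, lay between 14.03 in the lowest gene and file and 1260.78 in the highest. The median of their mean RPKM over the 6 files was 95.4, against 14.8 for all 11237 genes that reached the minimum for testing, a mean of 1 RPKM over the 4 siRNA libraries. All 32 members passed that minimum, and 16 of them had a mean of at least 100 RPKM, a level that 6.03% of the tested genes reached. The spread over the files was modest: the ratio of the highest to the lowest of the 6 values had a median of 1.51 over the members, against 1.63 over the 4573 tested genes whose mean was at least that of the lowest member.

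Hnrnpa1, a splicing repressor that also shuttles to the cytoplasm, had the highest level, with 1160.87 RPKM in siU2af65, 1112.96 in siPtbp1, 1260.78 and 981.91 in controls a and b, 912.07 in shnSR100 and 868.20 in shGFP. Pcbp2, which binds C-rich mRNA and stabilises some of its targets, came next with 703.03 RPKM in siU2af65, 668.88 in siPtbp1, 770.04 and 571.52 in controls a and b, 611.81 in shnSR100 and 562.33 in shGFP. For both genes the knockdown libraries lay between the control siRNA libraries, so neither knockdown differed beyond the spread of the controls. Pcbp3, a less studied poly(C)-binding relative, had the third highest mean, 296.3 RPKM, close to Hnrnpab with 295.4 RPKM and within its spread.

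At the low end stood Tia1 (mean 19.5 RPKM), a U-rich binding protein of introns and of stress granules, Syncrip (26.3 RPKM), also called hnRNP Q and known from mRNA transport in neurons, and Fubp3 (29.3 RPKM), a KH-domain relative of the factor that binds the far-upstream element of Myc. Tia1 had 20.88 RPKM in siU2af65, 17.89 in siPtbp1, 24.09 and 20.42 in controls a and b, 16.37 in shnSR100 and 17.22 in shGFP. Syncrip had 24.94 RPKM in siU2af65, 24.72 in siPtbp1, 28.21 and 24.68 in controls a and b, 27.27 in shnSR100 and 27.83 in shGFP. Syncrip was the steadiest of the 32, its highest value being 1.14 times its lowest. The order of levels puts Hnrnpd above Fubp3 in the controls and below it in the siU2af65 library.

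**Figure D1:**
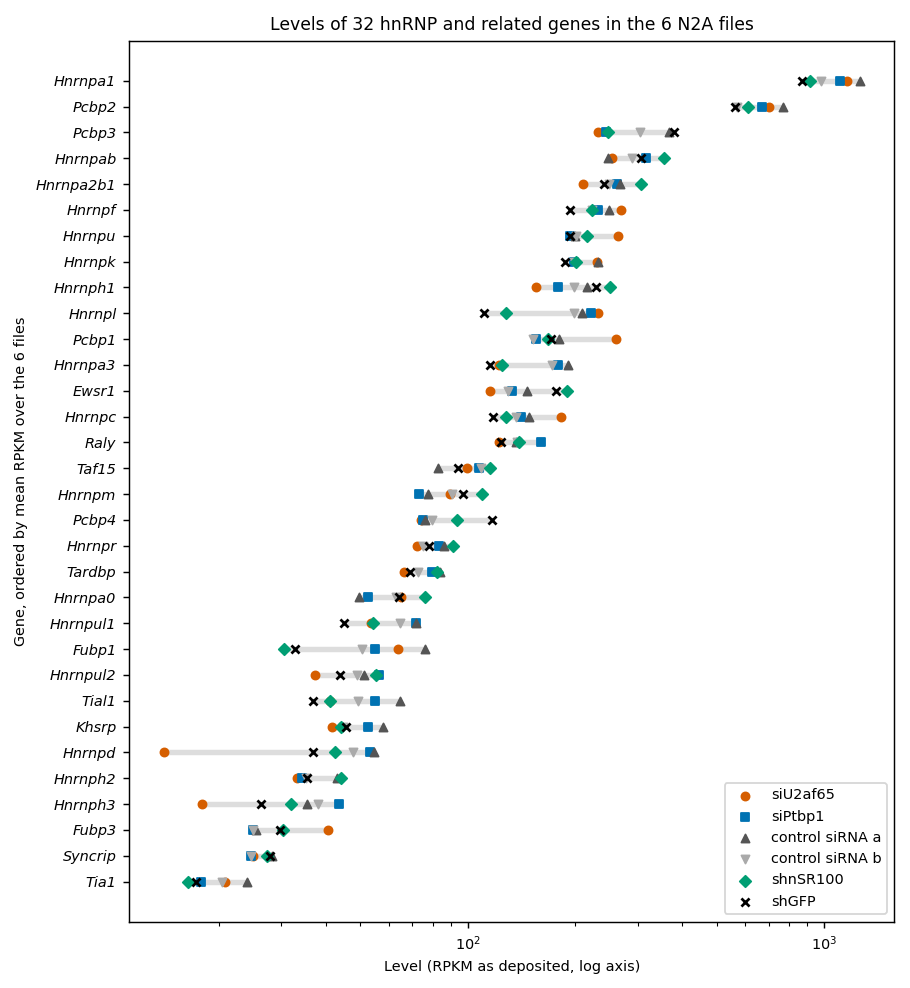
Level of each of the 32 genes (RPKM as deposited, log axis) in the 6 N2A files, ordered by the mean; 1 point is 1 file and the grey bar spans the 6 values. Hnrnpa1 and Pcbp2 lie above 500 RPKM in every file, and the siU2af65 point stands apart from the others in Hnrnpd (14.03 RPKM) and Hnrnph3 (17.99 RPKM).

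Some of these levels depend on how reads were assigned, which is not given in the sources used here. Hnrnpa1, Hnrnpa3 and other members of the group have processed copies elsewhere in the genome, and paralogs share stretches of sequence, so reads could have been split between copies. For Hnrnpa3, reads and RPKM together imply a counted length of 214 bases, and its 1485 to 2846 reads per file therefore stand for a small piece of the gene. The other members had implied lengths of at least 1073 bases.

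The siU2af65 library was compared with the 2 control siRNA libraries to ask what depletion of U2af65 did to this gene group. Of the 32 members 2 fell and 0 rose. Hnrnpd, also called AUF1, which binds AU-rich elements and steers the decay of such mRNAs, fell to 27.4% of the control mean, and Hnrnph3, a G-run-binding member of the hnRNP H family, to 49.0%. In the edgeR quasi-likelihood test (Benjamini-Hochberg adjusted p under 0.05), 3.42% of the 11237 tested genes fell and 1.82% rose (5.24% in either direction), so 2 of 32 is close to the background share, and the count shows nothing particular to the group. The next members in size, Hnrnpa3 and Pcbp3 on the lower side and Fubp3 and Pcbp1 on the higher side, did not pass. At an unadjusted p under 0.05 there were 3 lower members and 1 higher, where 13% of the tested genes were lower and 10.5% higher at that threshold.

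Hnrnpd (ENSMUSG00000000568) had 14.03 RPKM in the siU2af65 library, from 4101 reads, against 54.76 and 47.67 RPKM in controls a and b, from 14956 and 15705 reads. The siPtbp1 library had 53.15 RPKM, the shnSR100 file 42.37 and the shGFP file 36.78. The siU2af65 value was far below each of the other 5. Hnrnpd is the member with the widest range, its highest value being 3.90 times its lowest. Relative to control a alone the log2 difference was -2.13 and relative to control b alone -1.80, on either side of the -1.97 (approximate SE 0.26, edgeR adjusted p = 0.00848) against both.

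Hnrnph3 (ENSMUSG00000020069) had 17.99 RPKM in the siU2af65 library, against 35.50 and 37.96 RPKM in the controls. It stood at 43.54 RPKM in the siPtbp1 library, at 31.93 in the shnSR100 file and at 26.31 in the shGFP file. The siU2af65 library was again the lowest of the 6, and the controls lay close together, with a mean of 36.7 ± 1.74 RPKM (SD, n = 2). The log2 difference was -1.14 against control a and -1.12 against control b.

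Each call rests on 1 siU2af65 library and on a spread estimated from 1 pair of controls. With the shGFP file added as another control, 0 of the 11237 genes passed, and the differences were -1.81 for Hnrnpd (edgeR adjusted p = 0.389) and -0.96 for Hnrnph3 (adjusted p = 0.446).

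**Figure D2:**
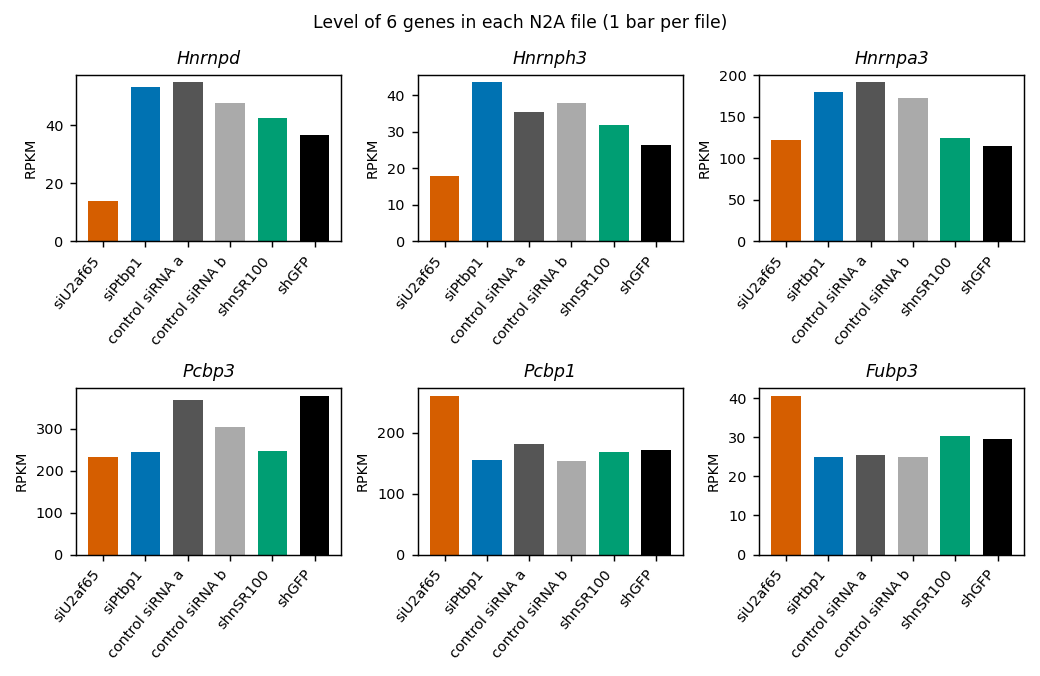
RPKM of Hnrnpd, Hnrnph3, Hnrnpa3, Pcbp3, Pcbp1 and Fubp3 in each N2A file, 1 bar per file, with each axis starting at 0. The siU2af65 bar is the lowest of 6 for Hnrnpd, Hnrnph3 and Pcbp3 and the highest for Pcbp1 (260.93 RPKM) and Fubp3 (40.64 RPKM); for Hnrnpa3 the hairpin files are as low as siU2af65.

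The closest paralog of Hnrnpd in the set, Hnrnpab, which binds RNA and single-stranded DNA, had 254.70 RPKM in siU2af65, against 248.60 and 289.53 RPKM in the controls, inside their range in RPKM. With the scaling of the edgeR fit it was below both, with log2 differences of -0.13 against control a and -0.23 against control b. The difference against both was -0.18 (SE 0.25) and did not pass. Hnrnpab had 316.60 RPKM in siPtbp1, 355.38 in shnSR100 and 307.63 in shGFP. The log2 ratio of Hnrnpd to Hnrnpab was -4.09 in siU2af65, against -2.16 and -2.58 in controls a and b. The same ratio was -2.55 in siPtbp1, -3.04 in shnSR100 and -3.03 in shGFP. The siU2af65 ratio was thus lower than in every other file and differed from the control mean by -1.72, with an SD of 0.29 between the controls. The ratio was also lower in both hairpin files than in the control siRNA libraries. Hnrnpdl, the other close relative of Hnrnpd and not a member of the set, had 58.87 RPKM in siU2af65, against 100.66 and 99.45 RPKM in the controls, a log2 difference of -0.87 that did not pass (SE 0.24, edgeR adjusted p = 0.0668).

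Within the F and H family, whose proteins bind runs of G and enhance or silence exons by position, Hnrnph1 had 155.46 RPKM in siU2af65, against 216.57 and 199.04 RPKM in the controls. The log2 difference was -0.52 and did not pass (SE 0.27, edgeR adjusted p = 0.280). Hnrnph2, an X-linked near copy of Hnrnph1, had a difference of -0.34 (33.24 RPKM in siU2af65, against 43.03 and 35.24 RPKM in the controls). Hnrnpf, which shares the G-run-binding domains, stood at 270.14 RPKM in siU2af65, against 249.75 and 222.93 RPKM in the controls, a difference of 0.09. The 4 genes of the family thus ranged from -1.13 to 0.09, and the log2 ratio of Hnrnpf to Hnrnph1 was 0.79 in siU2af65, against 0.20 and 0.16 in the controls. In Hnrnph3 against Hnrnph1 the ratio was -3.04 in siU2af65, against -2.58 and -2.36 in the controls, but it was -2.94 in shnSR100 and -3.08 in shGFP, so the siU2af65 ratio lay among those of the hairpin files.

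In the A and B family Hnrnpa3, a component of mRNA transport granules, had 122.60 RPKM in siU2af65, against 191.58 and 172.41 RPKM in the controls. The log2 difference of -0.68 did not pass (SE 0.26, edgeR adjusted p = 0.156). Hnrnpa3 had 179.68 RPKM in siPtbp1, 125.01 in shnSR100 and 115.23 in shGFP, so the 2 hairpin files were as low as the siU2af65 library. Hnrnpa2b1, a splicing and RNA transport protein, differed by -0.40 (211.40 RPKM in siU2af65, against 268.34 and 250.07 RPKM in the controls). Hnrnpa0, which binds AU-rich mRNAs in inflammatory signalling, differed by 0.11, with 65.05 RPKM in siU2af65, against 49.46 and 63.07 RPKM in the controls. The log2 ratio of Hnrnpa3 to Hnrnpa0 was 0.90 in siU2af65 and 1.93 and 1.44 in the controls, but 0.71 in shnSR100 and 0.83 in shGFP.

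Hnrnpc, which coats U-rich tracts and is known from human cells to compete with U2AF65 for cryptic 3′ splice sites, had 182.56 RPKM in siU2af65, against 148.76 and 136.68 RPKM in the controls. The log2 difference was 0.25 and did not pass (SE 0.26, edgeR adjusted p = 0.611). Raly, its paralog, had 122.69 RPKM in siU2af65, against 136.70 and 137.43 RPKM in the controls, a difference of -0.26. The log2 ratio of Hnrnpc to Raly was 0.57 in siU2af65, higher than in the other 5 files, which lay between -0.19 and 0.12.

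Among the KH-domain genes, Pcbp1, an intronless paralog of Pcbp2 that regulates splicing, translation and mRNA stability, had 260.93 RPKM in siU2af65, against 181.04 and 153.08 RPKM in the controls. It stood between 155.73 and 171.53 RPKM in the other 3 files, so the siU2af65 library was the highest of the 6. The share of tested genes that were highest in that library was not computed. The log2 difference was 0.54 and did not pass (SE 0.25, edgeR adjusted p = 0.237). The log2 ratio of Pcbp1 to Pcbp2 was -1.43 in siU2af65, above the other 5 files, which lay between -2.10 and -1.71. Hnrnpk, the founding KH-domain hnRNP, differed by -0.0051, and Pcbp4, which has been linked to cell cycle arrest, by -0.17.

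In the FUBP family Fubp3 had 40.64 RPKM in siU2af65, against 25.52 and 24.98 RPKM in the controls. The siPtbp1 library had 24.91 RPKM, shnSR100 30.24 and shGFP 29.64. The siU2af65 library was above all others, and the log2 difference was 0.58 (SE 0.21, unadjusted p = 0.0183, edgeR adjusted p = 0.127). With library totals alone as the scaling the adjusted p was 0.0328, and limma on log2(RPKM + 1) gave 0.0495 for Fubp3 and 0.0237 for Pcbp1, so these positive differences pass or miss the threshold by the choice of scaling and test. Fubp1, the activator of Myc transcription, had 63.72 RPKM in siU2af65, between the 75.95 and 50.47 RPKM of the controls. Khsrp, a decay and splicing factor of the same family, differed by -0.42 (41.54 RPKM in siU2af65, against 57.84 and 44.81 RPKM in the controls).

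Hnrnpu, a scaffold protein that binds RNA and chromatin, had 265.02 RPKM in siU2af65, against 200.67 and 201.06 RPKM in the controls. It was the highest of the 6 files, yet the log2 difference of 0.30 did not pass (SE 0.30, edgeR adjusted p = 0.595). Its relatives Hnrnpul1 and Hnrnpul2, both known from the response to DNA damage, differed by -0.45 and -0.53. Hnrnpul1 had 53.56 RPKM in siU2af65, against 71.41 and 64.46 RPKM in the controls, and Hnrnpul2 had 37.18 RPKM, against 51.18 and 48.95 RPKM. The log2 ratio of Hnrnpu to Hnrnpul1 was 2.29 in siU2af65, against 1.48 and 1.63 in the controls, 1.43 in siPtbp1, 1.98 in shnSR100 and 2.08 in shGFP.

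The remaining members did not pass. Tial1, the paralog of Tia1, had 41.13 RPKM in siU2af65, against 64.58 and 49.34 RPKM in the controls, and differed by -0.58 (SE 0.27, edgeR adjusted p = 0.234), while Tia1 differed by -0.20. Ewsr1, a FET protein that joins transcription to splicing, differed by -0.37 and its relative Taf15, also a TFIID-associated factor, by -0.036. Tardbp, which binds UG repeats and is mutated in some motor neuron disease, differed by -0.35, and Hnrnpr, a paralog of Syncrip found in axons, by -0.26. Syncrip itself differed by -0.19. Hnrnpl, which binds CA repeats, and Hnrnpm, a splicing factor that binds GU-rich sequence, differed by 0.082 and -0.014. Fewer cells of a kind and less RNA per cell cannot be told apart in such bulk libraries.

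As a group, 25 members had a negative difference after U2af65 knockdown and 7 a positive one, with a median of -0.20, against a median of -0.0040 and 50.4% negative over all tested genes. The split depends on where 0 lies: with library totals alone, or with limma on log2(RPKM + 1), it was 19 negative and 13 positive. Those settings moved the median of all tested genes to 0.094 and 0.096, and the members' median minus that of all genes was -0.18 with each, close to the -0.19 of the TMM scaling. The 6 members that changed sign with library totals were Hnrnpa1, Hnrnpk, Hnrnpm, Pcbp2, Taf15 and Fubp1, all within 0.11 of 0 on the log2 scale. Against each control separately, 19 members were lower than both and 5 higher than both. The share of all tested genes with either pattern was not computed, so these counts are not read as particular to the group. The controls themselves also differed. Of the 32 members 28 were lower in control b than in control a, with a median of -0.28 against 0.039 over all tested genes. The share of all tested genes lower in control b was not computed, so this count too is not read as particular to the group. The median after U2af65 knockdown was -0.35 against control a alone and -0.13 against control b alone. The low sums of the glia, immune, and endothelial and epithelial markers were also higher in the siU2af65 library than in any other file. That did not hold for the fibroblast markers, which summed to 0.84 RPKM in siU2af65, 12.18 RPKM in shnSR100 and 7.27 RPKM in shGFP. Their sum was 0.41 RPKM in control a and 0.76 RPKM in control b. Glia markers, 2 of 6 of which had at least 1 RPKM in each of these libraries, summed to 5.16 RPKM in siU2af65, against 2.60 and 2.76 RPKM in the controls. Immune markers summed to 3.90 RPKM in siU2af65, of which Tyrobp gave 3.41, against 0.64 and 1.16 RPKM in the controls, and Ptprc was at 0 in every file. Endothelial and epithelial markers summed to 9.99 RPKM in siU2af65, of which Pecam1 gave 9.15, against 5.47 and 5.92 RPKM in the controls, and Kdr was at 0 in every file. In both of the last lists 1 marker carried most of the sum, and the part of these markers in the members' differences was not tested.

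**Figure D3:**
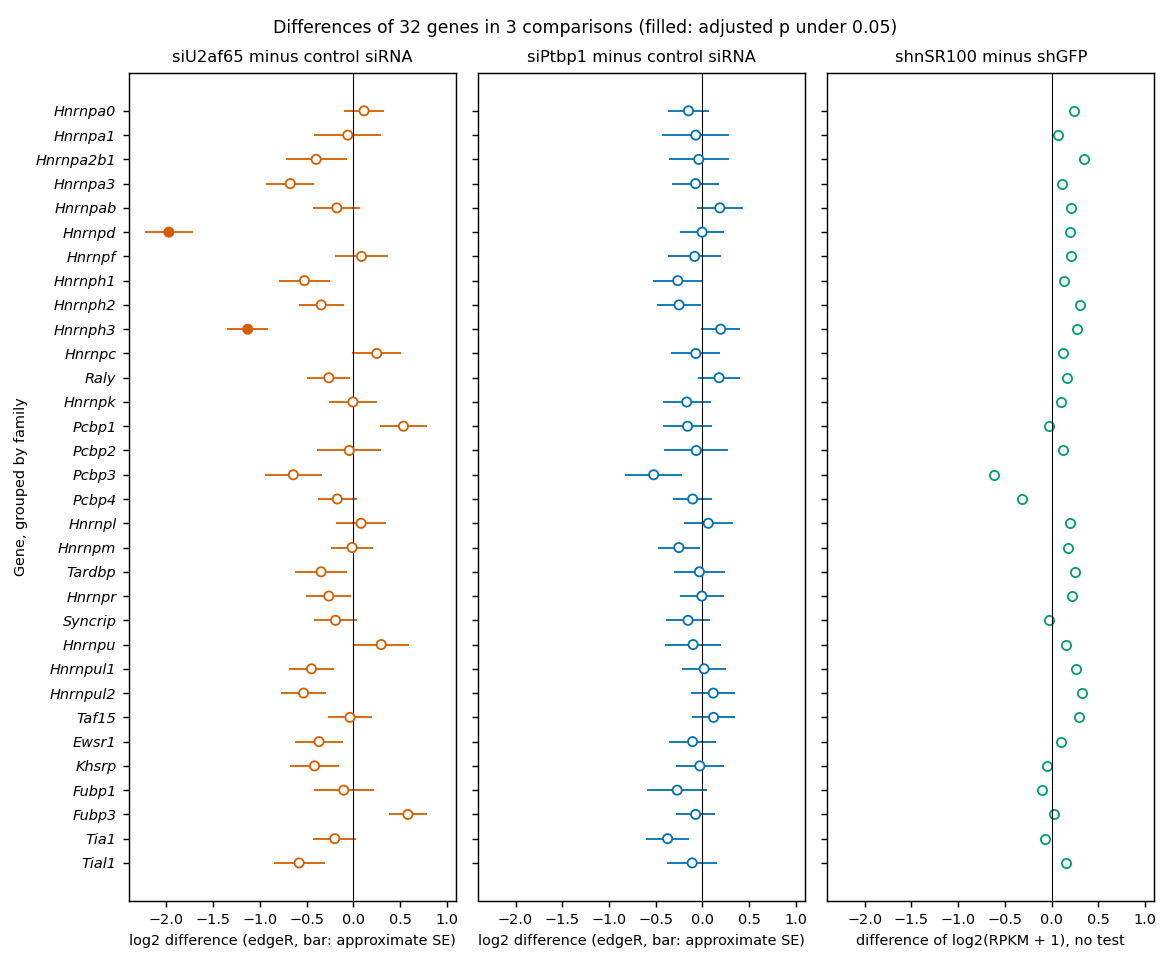
Log2 difference of each member, grouped by family, in 3 comparisons; in the siU2af65 and siPtbp1 panels the points are edgeR estimates with approximate SE bars and filled points have an adjusted p under 0.05, and in the hairpin panel the points are differences of log2(RPKM + 1) from 1 file against 1 file. Hnrnpd (-1.97) and Hnrnph3 (-1.13) are the 2 filled points, no siPtbp1 point is filled, and Pcbp3 is the lowest point of the siPtbp1 and hairpin panels.

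After Ptbp1 knockdown 0 members fell and 0 rose, and 0 passed an unadjusted p under 0.05 in edgeR. The background was low as well: 0.0267% of the 11237 genes fell and 0% rose, and at the unadjusted threshold 2.74% were lower and 1.54% higher. DESeq2 and limma likewise called 0 members, but they called few of all tested genes, so this count shows nothing particular to the group. Of the 32 differences 26 lay within 0.25 of 0 on the log2 scale, and the median was -0.074, against 0.014 over all tested genes. Of the members 25 were negative and 7 positive, where 47.8% of all tested genes were negative. This split depended on the controls. It was 27 and 5 against control a alone and 9 and 23 against control b alone, with medians of -0.19 and 0.067. With limma on log2(RPKM + 1) it was 18 and 14, but the median of all tested genes was then 0.067, and the members' median minus it was -0.084, against -0.089 with TMM scaling. With shGFP as another control the split was 14 and 18, and the members' median minus that of all genes was 0.059.

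The 4 largest differences after Ptbp1 knockdown were all negative. Pcbp3 (-0.52, SE 0.30) had 244.40 RPKM in siPtbp1, against 368.36 and 305.62 RPKM in the controls. Tia1 (-0.37, SE 0.23) had 17.89 RPKM in siPtbp1, against 24.09 and 20.42 RPKM in the controls. Both genes were lower in siPtbp1 than in either control, by less than the fit can tell from its spread. Fubp1 (-0.27, SE 0.32) had 54.82 RPKM in siPtbp1, between 75.95 and 50.47 RPKM in the controls, and its difference was -0.58 against control a and 0.13 against control b. Hnrnph1 (-0.26, SE 0.27) had 179.83 RPKM in siPtbp1, against 216.57 and 199.04 RPKM in the controls. The edgeR adjusted p was 0.999 for each of the 4.

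The 2 genes that fell with U2af65 knockdown showed no such difference here. Hnrnpd differed by -0.0039 (SE 0.23) and Hnrnph3 by 0.19 (SE 0.21). In the direct comparison of the siU2af65 library with the siPtbp1 library, in the same fit, 2 members fell and 0 rose, where 2.54% of the 11237 genes fell and 1.09% rose (3.62% in either direction). They were Hnrnpd, at -1.97 (log2, with an SE of 0.28 and an edgeR adjusted p of 0.0109), and Hnrnph3, at -1.32 (SE 0.25, adjusted p = 0.0247). The largest positive differences were in Pcbp1 (0.70, SE 0.30, adjusted p = 0.223) and Fubp3 (0.66, SE 0.24, adjusted p = 0.163), which did not pass. The spread in this comparison, too, came from the control pair. With shGFP as another control neither gene passed (edgeR adjusted p = 0.581 for each), and with a minimum mean of 5 RPKM the adjusted p of Hnrnph3 was 0.0557.

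The nSR100 hairpin file was set against the GFP hairpin file, with 1 file on each side and therefore no test. At a fold of 1.5 on the log2(RPKM + 1) scale, 0 members were higher and 1 was lower, where 3.1% of 11877 genes were higher and 3.69% lower. The lower member was Pcbp3, with 247.57 RPKM in shnSR100, against 379.32 RPKM in shGFP, a log2 difference of -0.61. Pcbp4 was next, with 93.64 RPKM in shnSR100, against 116.83 RPKM in shGFP (-0.32). At the other end Hnrnpa2b1 had 307.29 RPKM in shnSR100, against 241.84 RPKM in shGFP (0.34), and Hnrnpul2 had 55.19 RPKM, against 43.93 RPKM (0.32). Hnrnpd differed by 0.20 and Hnrnph3 by 0.27, both higher in the nSR100 hairpin file. In all, 25 members were higher and 7 lower, with a median of 0.16, against 0.035 and 55.7% higher over all 11877 genes, and no error can be put on these differences. The summed level of the neuroblastoma and neuron markers was also lower in the nSR100 hairpin file (692.5 RPKM, against 1027 RPKM in shGFP), and its part in these values was not tested.

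Pcbp3 (ENSMUSG00000001120) was the single member whose 3 knockdown files all lay below all 3 control files. It had 232.65 RPKM in siU2af65, 244.40 in siPtbp1 and 247.57 in shnSR100, against 368.36 and 305.62 RPKM in the control siRNA libraries and 379.32 RPKM in shGFP. Across the tested genes 1.73% showed this pattern, so 1 of 32 is not far from the background, and the pattern was looked for after the values had been seen. No member had the opposite pattern, which 3.82% of the tested genes had. Both siRNA differences share the same controls, and neither passed in edgeR. Pcbp3 differed by -0.64 (SE 0.30) with the siU2af65 pool, where its adjusted p was 0.236, and by -0.52 (SE 0.30) with the siPtbp1 pool, where it was 0.999. The log2 ratio of Pcbp3 to Pcbp4 was 1.64 in siU2af65, 1.69 in siPtbp1 and 1.39 in shnSR100, against 2.26 and 1.93 in the control siRNA libraries and 1.69 in shGFP, so this ratio did overlap.

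**Figure D4:**
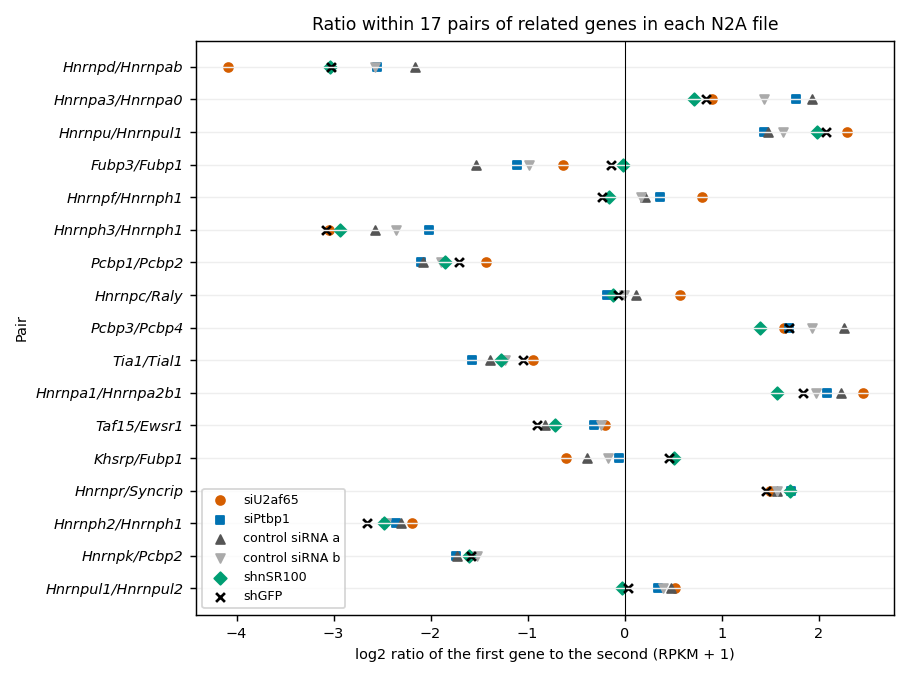
Log2 ratio of RPKM + 1 within 17 pairs of related genes, 1 point per file. The siU2af65 point is the lowest for Hnrnpd/Hnrnpab (-4.09) and the highest for Hnrnpu/Hnrnpul1 (2.29). In Hnrnph3/Hnrnph1 it lies between the hairpin files. In Hnrnpa3/Hnrnpa0 it lies just above the hairpin files and below the other siRNA libraries.

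The ratios of related genes were compared in 17 pairs, as a description with no test run. Several pairs share a gene (Hnrnph1, Fubp1, Pcbp2 or Hnrnpul1), so they are not independent of each other. After U2af65 knockdown 8 pairs differed from the control mean by at least 0.5 on the log2 scale, and they were Hnrnpd/Hnrnpab (-1.72), Hnrnpa3/Hnrnpa0 (-0.78), Hnrnpu/Hnrnpul1 (0.73), Fubp3/Fubp1 (0.63), Hnrnpf/Hnrnph1 (0.61), Hnrnph3/Hnrnph1 (-0.57), Pcbp1/Pcbp2 (0.56) and Hnrnpc/Raly (0.51). The SD between the controls was 0.35 for Hnrnpa3/Hnrnpa0 and 0.39 for Fubp3/Fubp1, and between 0.030 and 0.29 for the other 6. After Ptbp1 knockdown 0 pairs reached 0.5, the largest being Hnrnph3/Hnrnph1 with 0.45, and between the hairpin files 0 did, the largest being Pcbp3/Pcbp4 with -0.30. How many pairs of unrelated genes would reach 0.5 was not computed. Many more of all tested genes passed after U2af65 knockdown than after Ptbp1 knockdown, so these counts are not read as particular to paralogs. The smallest changes over the 3 comparisons were those of Hnrnpul1/Hnrnpul2, with 0.52 in siU2af65, against 0.47 and 0.39 in the controls, and Hnrnpk/Pcbp2, with -1.60 in siU2af65, against -1.73 and -1.52 in the controls.

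The hairpin files stood apart from the siRNA libraries for several members, as they did for many of the tested genes, whichever factor was depleted. In 6 members (Hnrnpa1, Hnrnpc, Hnrnpl, Fubp1, Tia1 and Tial1) both hairpin files lay below all 4 siRNA libraries, and in 4 (Hnrnph1, Hnrnpm, Pcbp4 and Ewsr1) both lay above, where 15.2% and 27.4% of the tested genes did so. The counts therefore show nothing particular to the group. Hnrnpl had 128.12 RPKM in shnSR100 and 111.30 in shGFP, against 232.42 RPKM in siU2af65, 221.52 in siPtbp1 and 209.12 and 199.44 in the controls. Fubp1 had 30.56 RPKM in shnSR100 and 32.83 in shGFP, against 50.47 to 75.95 RPKM in the siRNA libraries. Delivery, selection and read length all differ between the 2 kinds of file and cannot be told apart. The fibroblast markers differed between them as well, and their part was not tested.

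A list of 56 symbols of other hnRNP-associated and RNA-binding genes gave 51 genes in the files, of which 46 were tested. In each of the 3 siRNA comparisons 0 of the 46 passed. At an unadjusted p under 0.05 in edgeR, 6 were lower and 0 higher after U2af65 knockdown, 0 lower and 2 higher after Ptbp1 knockdown, and 8 lower and 0 higher in siU2af65 against siPtbp1. Over all tested genes 13% were lower and 10.5% higher at that threshold after U2af65 knockdown, 2.74% and 1.54% after Ptbp1 knockdown, and 12.1% and 8.73% in siU2af65 against siPtbp1, and whether the list differs from those shares was not tested. The medians were -0.17, 0.0022 and -0.16.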

How the data were processed

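For each mouse gene the deposited files give a read count and an RPKM value. The authors made both. The count, the RPKM and the file's total together imply a counted length, which was the same across the files within 1% for all 5756 genes checked. These lengths were not compared with annotated gene lengths. Per the submitters' processing notes, Bowtie, bedtools 2.17.0 and the builds mm9 and hg19 were used, with no roles given; the counting rule, strand use and annotation are not given in the sources used here. RPKM is missing for 1114 of 22667 genes, and 20759 were matched to symbols through the reference gene table.

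The counts of the 4 siRNA libraries went into a single edgeR 4.0.16 quasi-likelihood fit (R 4.3.3, TMM scaling) of the 11237 genes that averaged 1 RPKM or more, with Benjamini-Hochberg adjustment over all of them and a threshold of 0.05. The control pair gave the 1 residual degree of freedom (prior 8.65, common dispersion 0.0375), and the SE is approximate, the log2 difference over the square root of F. The hairpin files and the gene ratios were compared on log2(RPKM + 1) without a test. Alternatives used DESeq2 1.42.0, limma 3.58.1, other scalings, filters, pseudocounts and controls. The procedure was tested on simulated data with less spread than these data and with larger changes than that of Hnrnph3. Because of the lower spread, that test cannot tell how well changes of the size seen in Hnrnpd or in Hnrnph3 are called here. Given in full are members past the threshold, the 4 with the largest difference in each comparison, the 3 highest and 3 lowest in level, and the 4 pairs with the largest change in ratio; other members are given more briefly. The members and lists were chosen with earlier results of these data known. The human 293T files were not used here.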

Additional observations from a re-analysis of the deposited data

How the results depend on the processing

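No paired analysis was possible because a fit with the library letter as a block leaves no residual degree of freedom, and the runs of each hairpin file are combined. Without either control library no test could be made for the same reason, and values only were recomputed. The median after U2af65 knockdown was -0.35 without control b and -0.13 without control a. For Fubp1 after Ptbp1 knockdown the difference was -0.58 without control b and 0.13, the other sign, without control a. Of the 8 alternatives with a test, 7 kept both Hnrnpd and Hnrnph3 among the genes that fell after U2af65 knockdown, with adjusted p of at most 0.0365 and 0.0482. The shGFP file as a control left 0 members that fell after U2af65 knockdown, and 0 against siPtbp1 (adjusted p 0.581 for Hnrnpd and for Hnrnph3). With a mean of at least 5 RPKM, 1 member fell against siPtbp1, as Hnrnph3 had an adjusted p of 0.0557. Members that rose after U2af65 knockdown numbered 1 with library totals (Fubp3), 2 with limma and a pseudocount of 1 (Fubp3 and Pcbp1) and 1 with 0.1 (Pcbp1), and against siPtbp1 limma gave 1 (Pcbp1, 0.74, adjusted p 0.0280 and 0.0291). At a fold of 2 between the hairpin files 0 members were lower. The cause of these changes was not tested. Over all genes the count called after U2af65 knockdown was 589, and 0 to 1649 under the alternatives with a test. Between the hairpin files there are no replicates, and 1 library per knockdown limits every statement above.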
